A study of Saccharomyces cerevisiae with 11 samples.

Results

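The comparison set 3 budding yeast (Saccharomyces cerevisiae) cultures that carried the SCC2 variant R787G against 3 cultures that carried the SCC2 variant G1242V, 6 of the 11 libraries of the series. The libraries were taken by their labels and no measured value chose them. Of 7035 features in the deposited table, 6410 passed a filter on low values and were tested. All strains were MATa in the W303 background and carried the markers can1-100, trp1-1, ade2-1, his3-11,15 and both leu2-3 and leu2-112, with OsTIR1 under the ADH1 promoter and a URA3 marker at ura3-1, and with the chromosomal SCC2 copy fused to AID*-6FLAG, an auxin-inducible degron with a HYG marker. A pRS413 plasmid with a HIS marker carried scc2-R787G-7MYC or scc2-G1242V-7MYC in the groups compared, SCC2-7MYC in the 3 WT cultures, or no SCC2 in the 2 empty vector cultures. Every culture, WT and empty vector included, grew without histidine and spent its last 9 h in 1 mM IAA, the auxin that leads to degradation of the tagged chromosomal Scc2. Residual tagged Scc2 was not measured in the data used here, and the labels do not say whether the cultures of a group came from separate transformants. P-values therefore measure the spread between cultures, which may be technical. Optical density at harvest is given as 1 range for all strains, so the density of each culture is not known here.

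Scc2 and Scc4 form the loader that places the cohesin ring on chromosomes, and the ring is built from Smc1, Smc3, Mcd1 and Irr1. Cohesin is known for holding sister chromatids together, for folding chromosomes into loops and, in several organisms, for effects of loader variants on transcription and on ribosome production. In growing yeast, transcripts for ribosomal proteins and for the factors that assemble ribosomes make up a large coordinated group, which is known to run opposite to the genes induced by general stress.

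The gene that differs between the plasmids is SCC2 (YDR180W), which spans 821295 to 825776 of chromosome IV in sacCer3. The sites of both variants in its reading frame are shown because they are the design of the comparison. Each line gives the plus strand of the sacCer3 reference, 5′ to 3′, with the codon of the residue in capitals, chrIV:823653-823655 for the arginine changed in R787G and chrIV:825018-825020 for the glycine changed in G1242V.
R787G site: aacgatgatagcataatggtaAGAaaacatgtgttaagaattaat
G1242V site: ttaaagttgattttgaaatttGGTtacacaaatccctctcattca
These are reference letters, and the sources used here do not give the codons on the plasmids.

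The SCC2 transcript had 100.4, 132 and 106 scaled TPM in R787G replicates 1 to 3, against 78.1, 96.9 and 96.4 in G1242V replicates 1 to 3. Scaled TPM are the deposited TPM, a read-based measure of relative transcript abundance per length, after 1 scaling factor per library. All R787G cultures lay above all G1242V cultures, but the difference did not pass the threshold of an adjusted p under 0.05, with a log2 fold change of 0.31 ± 0.12 (SE, limma adjusted p = 0.0672). Without the scaling it did pass, at 0.43 (limma adjusted p = 0.0195). Mean levels were 113 ± 16.9 in R787G, 90.5 ± 10.7 in G1242V, 112 ± 12.9 in WT (SD, n = 3 each) and 23.2 ± 0.988 in the empty vector (SD, n = 2). With the empty vector, where only chromosomal SCC2 can be transcribed, the level was far below all others.

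HIS3 (YOR202W), the histidine synthesis gene that served as plasmid marker, had 813, 1108 and 804 scaled TPM in the R787G cultures and 1955, 2413 and 1907 in the G1242V cultures. Every G1242V value exceeded every R787G value, and HIS3 fell in R787G by a log2 fold change of -1.21 ± 0.19 (limma adjusted p = 0.00103). WT cultures averaged 832 ± 177 and empty vector cultures 934 ± 144, both near the R787G level. TPM do not separate plasmid HIS3 from the chromosomal his3-11,15 copy, and plasmid copy number was not measured. Nor do they separate plasmid SCC2 from the chromosomal SCC2 copy, and SCC2 had the opposite sign and did not pass. The part of plasmid copy number in either difference was not tested. The part of the HIS3 difference in the results below was not tested.

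**Figure D1:**
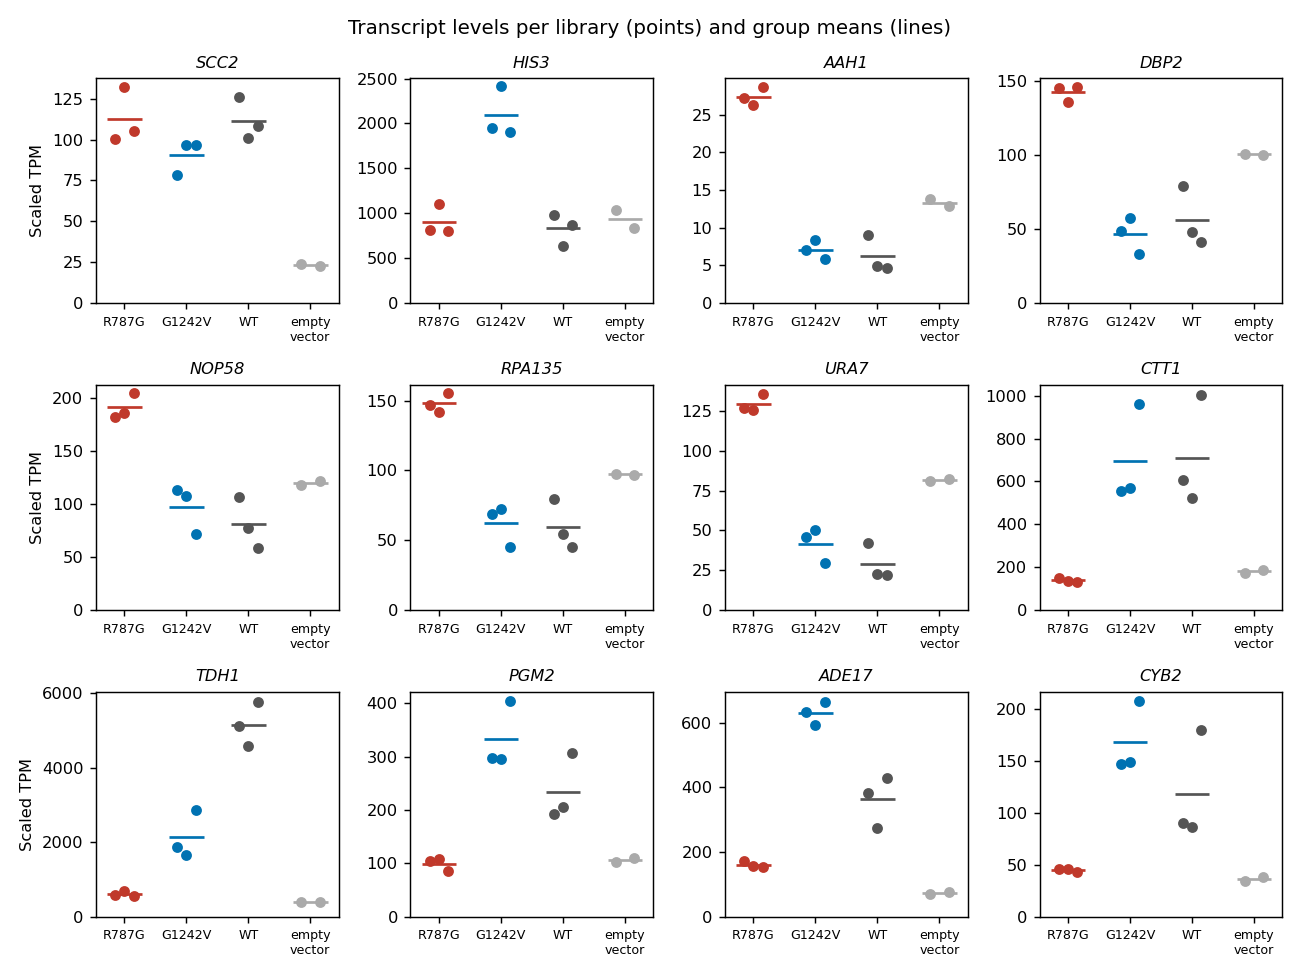
Scaled TPM (y axes from 0) of 12 genes in each library (points) with group means (lines), for R787G, G1242V, WT and the empty vector. R787G points lie apart from G1242V points in each panel, above them for AAH1, DBP2, NOP58, RPA135, URA7 and SCC2 and below them for HIS3, CTT1, TDH1, PGM2, ADE17 and CYB2.

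Values below are log2 fold changes of R787G over G1242V with their SE, from limma on log2(scaled TPM + 1), on which low genes show less than their full fold. Triplets of values follow replicates 1, 2 and 3, and WT and empty vector means are given ± SD (n = 3 and n = 2). TPM keep no sequencing depth, so depth is unknown and precision shows only through the spread between cultures. Across genes, log2 levels correlated with Pearson's r of 0.989 to 0.996 inside the R787G and G1242V groups, and of 0.964 to 0.983 between them. G1242V replicate 3 stood somewhat apart in its group, with r of 0.990 and 0.989 to its replicates against 0.995 between those, and results that rest on it are given without it. Whole chromosomes also differed between cultures. The median log2 shift of 77 chromosome I genes from the mean of the 6 libraries was 0.22, -0.34 and -0.37 in the R787G cultures and -0.02, 0.60 and -0.10 in the G1242V cultures. For 187 chromosome IX genes it was -0.15, -0.15 and 0.33 in the R787G cultures and -0.10, -0.12 and 0.19 in the G1242V cultures. Named genes on these chromosomes are marked, and the part of the chromosome shift in their values was not tested.

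The partner of Scc2 in the loader, SCC4, rose in R787G, with 21.9, 23.4 and 21.5 scaled TPM against 18.5, 18.2 and 18.2 in G1242V and a log2 fold change of 0.27 ± 0.07 (limma adjusted p = 0.00851). Of 8 genes for the cohesin ring and its regulators, 2 rose and 0 fell, beside 26.3% of all tested features higher and 20% lower. SMC3, which encodes an ATPase arm of the ring, had 34.5, 32.2 and 34.5 scaled TPM in R787G and 23.4, 26.6 and 19.5 in G1242V, a change of 0.53 ± 0.10 (limma adjusted p = 0.00209). PDS5, for a subunit bound to the ring, had 22.5, 22.9 and 23.7 in R787G and 18.5, 21.0 and 16.3 in G1242V and rose by 0.30 ± 0.09 (limma adjusted p = 0.0204), a call that ended without R787G replicate 2 or 3 or without G1242V replicate 1 or 3. The other arm gene SMC1 was at 0.23 ± 0.09 (limma adjusted p = 0.0691) and the acetyltransferase gene ECO1 at 0.27 ± 0.11 (limma adjusted p = 0.0685), neither past the threshold. MCD1, the cleavable kleisin of the ring, was at -0.06 ± 0.10, IRR1, its HEAT-repeat subunit on chromosome IX, at 0.14 ± 0.14, RAD61, for a releasing factor, at -0.05 ± 0.10, and HOS1, for the Smc3 deacetylase, at 0.09 ± 0.06. The groups of MCD1, IRR1 and RAD61 overlapped, and MCD1 and RAD61 took the opposite sign in the deposited TPM and after rescaling to nuclear coding genes. The rises numbered 5 in the TPM as deposited, 4 after rescaling to nuclear coding genes and 4 without WT replicate 1.

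The labelled mating type matched the markers. STE2, the alpha-factor receptor gene of a cells, had 199, 201 and 204 scaled TPM in R787G and 230.4, 217 and 222 in G1242V, and MFA2, an a-factor gene, had 388, 375 and 306 in R787G and 401, 386 and 339 in G1242V. Of 7 a-specific genes 1 passed the test. That gene, ASG7, an a-specific regulator of pheromone signalling, fell to 7.47, 7.48 and 7.10 scaled TPM in R787G, against 18.8, 18.3 and 20.1 in G1242V (-1.26 ± 0.12, limma adjusted p = 0.000187). Of 4 alpha-specific genes MF(ALPHA)2 did not pass the filter on low values, and the other three rose. The a-factor receptor gene STE3 had 5.48, 5.63 and 4.96 scaled TPM in R787G and 2.95, 2.79 and 2.82 in G1242V (0.72 ± 0.09, limma adjusted p = 0.000472). SAG1, the alpha-agglutinin gene, had 28.4, 28.5 and 26.0 in R787G and 21.1, 22.1 and 22.4 in G1242V (0.33 ± 0.08, limma adjusted p = 0.0101). The call of the alpha-factor gene MF(ALPHA)1 at 0.67 ± 0.21 (limma adjusted p = 0.0267) ended without R787G replicate 1 or 2 or G1242V replicate 2, with a fit to only the 6 R787G and G1242V libraries, and under quantile normalization.

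Across all features, 2970 of 6410 differed between the variants at a limma adjusted p under 0.05, or 46.3%. In R787G 1689 were higher (26.3% of those tested) and 1281 lower (20%). The median log2 fold change of all features was 0.05, with quartiles of -0.19 and 0.30, so most differences were small. At least 2-fold changes past the threshold were found for 150 features that were higher (2.34%) and 139 that were lower (2.17%). The first of these counts was 69 without G1242V replicate 3 and 226 without G1242V replicate 2. Groups did not overlap for 2258 features that were higher in R787G (35.2%) and 1789 that were lower (27.9%). The share of calls that were higher depended on the scaling. It was 56.9% here, 75.5% in the unscaled TPM and 73.5% after rescaling to nuclear coding genes, where the median of all features moved to 0.16 and 0.15. In RNA from whole cultures, a change in the share of cells that express a gene cannot be told apart from a change in every cell.

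**Figure D2:**
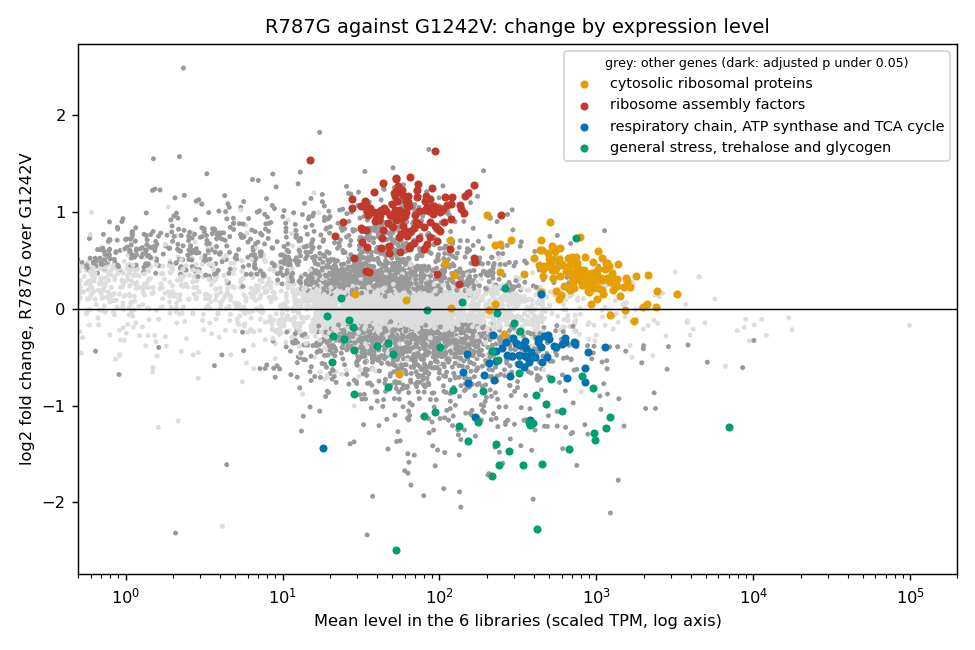
Log2 fold change of R787G over G1242V (y axis) against the mean level of the 6 libraries in scaled TPM (log x axis), one point per tested feature. Ribosome assembly factors (red) lie above 0 around a log2 fold change of 1, cytosolic ribosomal proteins (orange) just above 0 at high levels, and respiratory (blue) and general stress, trehalose and glycogen genes (green) mostly below 0.

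Among genes with a standard symbol, at 10 scaled TPM or more and with groups apart, the largest rise in R787G was that of AAH1, the adenine deaminase gene. AAH1 had 27.2, 26.3 and 28.6 scaled TPM in the R787G cultures and 7.00, 8.39 and 5.90 in the G1242V cultures, a log2 fold change of 1.82 ± 0.20 (limma adjusted p = 0.000269). WT averaged 6.21 ± 2.43 and the empty vector 13.3 ± 0.656, so the R787G cultures were the highest of the 4 groups. URA7, for CTP synthase, followed with 127, 126 and 136 in R787G and 45.8, 50.0 and 29.3 in G1242V (1.65 ± 0.24, limma adjusted p = 0.000864). DBP2, for an RNA helicase with roles in ribosome assembly and mRNA metabolism, had 145, 136 and 146 scaled TPM in R787G and 49.0, 57.3 and 33.2 in G1242V (1.63 ± 0.23, limma adjusted p = 0.000786). In these genes the R787G cultures lay close together, and the lowest G1242V value was that of replicate 3. TOD6 encodes a repressor that binds the PAC element of ribosome assembly genes, and it rose with them, at 49.3, 45.3 and 52.9 in R787G and 17.4, 19.9 and 16.1 in G1242V (1.42 ± 0.20, limma adjusted p = 0.000735). THI4, for thiazole synthesis, had 294, 304 and 225 in R787G and 104, 156 and 62.7 in G1242V (1.42 ± 0.27, limma adjusted p = 0.00232). The rest of the 15 largest rises were those of DHR2 (1.53), HAS1 (1.36), HCA4 (1.34), SDA1 (1.34), ENP2 (1.30), SYO1 (1.29) and ARX1 (1.28), all for factors of ribosome assembly or of ribosomal protein import. They also included the small nucleolar RNA SNR78 (1.41), the sporulation gene SPO19 (1.39) and ANB1 (1.29), a gene for the translation factor eIF5A. The SNR78 call ended without R787G replicate 1 or 2 and with a fit to only the 6 R787G and G1242V libraries.

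The largest fall by the same rule was that of FMP45, a gene for a membrane protein of the SUR7 family. FMP45 had 16.8, 14.7 and 13.5 scaled TPM in R787G and 71.2, 83.0 and 117 in G1242V, a log2 fold change of -2.49 ± 0.19 (limma adjusted p = 8.90e-05). CTT1, for cytosolic catalase, fell to 149, 135 and 132 in R787G, against 557, 569 and 964 in G1242V (-2.27 ± 0.26, limma adjusted p = 0.000304). WT averaged 711 ± 259 and the empty vector 179.5 ± 10.1, so CTT1 was high with WT and G1242V and low with R787G and with the empty vector. ADE17, for the enzyme of the final steps of IMP synthesis, had 172, 157 and 152 in R787G and 634, 592 and 666 in G1242V (-1.97 ± 0.14, limma adjusted p = 4.75e-05). G1242V exceeded the WT mean of 363 ± 78.8 in every culture and R787G lay below it. ADH5, an alcohol dehydrogenase gene, had 56.3, 56.6 and 54.3 in R787G and 268, 198 and 173 in G1242V (-1.89 ± 0.25, limma adjusted p = 0.00052), while WT averaged 71.3 ± 28.5 and the empty vector 47.4 ± 3.73. APE1, for a vacuolar aminopeptidase, had 92.4, 98.0 and 88.5 in R787G and 267, 266 and 411 in G1242V (-1.72 ± 0.15, limma adjusted p = 0.00015), both below the WT mean of 965 ± 101. Others of the 15 largest falls were NRS1 (-2.33), EGO4 (-2.11), ICY1 (-2.05), HAB1 (-1.94), the phosphoglycerate mutase homologue GPM2 (-1.93), the lactate dehydrogenase gene CYB2 (-1.86), the regulator gene MET28 on chromosome IX (-1.82), TDH1 (-1.77), the amino acid permease gene DIP5 (-1.73) and PGM2 (-1.73). No call of these 15 genes ended in any alternative tried.

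Factors that assemble ribosomes were higher in R787G almost without exception. All 61 tested genes for small-subunit assembly rose, with a median log2 fold change of 0.97 (quartiles 0.82 to 1.03). For the large subunit, 73 of 74 rose and none fell, with a median of 1.02 (quartiles 0.81 to 1.14), beside 26.3% higher and a median of 0.05 over all features. The small-subunit median per library, taken from the mean of the 6 libraries, was 0.50, 0.44 and 0.51 in R787G and -0.43, -0.27 and -0.71 in G1242V. On the same scale it was -0.14, -0.43 and -0.74 in WT and 0.31 and 0.30 in the empty vector. Every R787G library was thus above every library of the other groups, and G1242V lay within the range of WT.

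Among single factors, the helicase gene DHR2 had 23.0, 22.5 and 22.3 scaled TPM in R787G and 7.35, 9.43 and 5.22 in G1242V (1.53 ± 0.21, limma adjusted p = 0.000693). HAS1, for a helicase of both subunits, had 93.7, 89.5 and 94.7 in R787G and 38.8, 44.7 and 25.6 in G1242V (1.36 ± 0.25, limma adjusted p = 0.002). SDA1, needed for large-subunit maturation, had 76.6, 74.2 and 78.4 in R787G and 30.7, 35.3 and 23.8 in G1242V (1.34 ± 0.18, limma adjusted p = 0.000566). ARX1, for an export factor of the large subunit, had 102, 100.4 and 108 in R787G and 43.9, 51.4 and 32.4 in G1242V (1.28 ± 0.19, limma adjusted p = 0.000903). In all of these the R787G values spanned a narrow range above the G1242V values. Without G1242V replicate 3 the medians were 0.81 for the small and 0.89 for the large subunit.

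RNA polymerase I, which transcribes the ribosomal RNA repeat, moved the same way, with 11 of 15 genes higher, 0 lower and a median of 0.70. RPA135, for its second-largest subunit, had 147, 142 and 156 scaled TPM in R787G and 69.1, 72.2 and 45.3 in G1242V (1.27 ± 0.21, limma adjusted p = 0.0013). RPA190, for the largest subunit, had 136, 129.9 and 145 in R787G and 67.7, 70.1 and 48.4 in G1242V (1.15 ± 0.19, limma adjusted p = 0.00137). The initiation factor gene RRN3 had 69.2, 66.6 and 64.1 in R787G and 32.3, 35.4 and 25.6 in G1242V (1.09 ± 0.13, limma adjusted p = 0.00043). In each of the 3 genes the lowest value was that of G1242V replicate 3. All 7 subunits that the polymerases share rose (median 0.54), among them RPC40 at 0.70 ± 0.14 (limma adjusted p = 0.00376). Of 18 genes for RNA polymerase III, which makes 5S and transfer RNA, 12 rose and 1 fell (median 0.49). RPC34 had 61.5, 62.1 and 64.9 in R787G and 34.5, 37.9 and 31.8 in G1242V (0.84 ± 0.09, limma adjusted p = 0.000266). The one fall was TFC3 on chromosome I at -0.82 ± 0.24 (limma adjusted p = 0.0205), with 49.6, 32.1 and 32.6 in R787G and 57.9, 87.0 and 59.0 in G1242V, a call that ended without R787G replicate 2 or 3 or G1242V replicate 2. Of 11 regulators of ribosomal gene transcription 3 rose and 1 fell, or 36.4% called against 46.3% of all features. Their median of 0.12 was -0.02 without G1242V replicate 1 and -0.03 under quantile normalization. MAF1, the polymerase III repressor gene, fell, at -0.58 ± 0.17 (limma adjusted p = 0.0173), a call that ended without G1242V replicate 3. Sch9, a kinase that promotes ribosome production, had a transcript at 83.8, 87.0 and 84.9 in R787G and 59.0, 62.7 and 53.8 in G1242V (0.54 ± 0.09, limma adjusted p = 0.00135).

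Cytosolic ribosomal proteins differed far less between the variants than the assembly factors did. Of 81 large-subunit genes 16 rose and 1 fell (median 0.37), and of 57 small-subunit genes 10 rose and 0 fell (median 0.32). These shares of rises were below the 26.3% of all features, although both medians were above that of all features. The G1242V cultures were spread widely here, with large-subunit medians per library of 0.11, 0.14 and 0.29 in R787G and 0.16, -0.16 and -0.54 in G1242V. G1242V replicate 1 lay inside the R787G range and replicate 3 far below it. Without G1242V replicate 1, 52 large-subunit and 29 small-subunit genes rose. Without R787G replicate 1, 2 or 3 the large-subunit count was 6, 6 and 2, without G1242V replicate 2 or 3 it was 10 and 7, and without either empty vector library 10. Without G1242V replicate 1 the large- and small-subunit medians were 0.53 and 0.48, and without G1242V replicate 3 they were 0.19 and 0.15. The small-subunit count was 5, 5 and 3 without R787G replicate 1, 2 or 3 and 4 without G1242V replicate 3. In the TPM as deposited the counts were 51 and 28. WT large-subunit medians were -2.17, -2.54 and -2.32 and those of the empty vector -0.89 and -0.87, so both variants lay above both of these groups. RPS14B had 258, 256 and 267 scaled TPM in R787G and 174, 156 and 86.2 in G1242V (0.96 ± 0.23, limma adjusted p = 0.00805), and RPL12A had 977, 933 and 997 in R787G and 744, 671 and 385 in G1242V (0.74 ± 0.20, limma adjusted p = 0.0136). RPL15B fell, with 42.0, 43.4 and 41.5 in R787G and 66.5, 62.1 and 76.5 in G1242V (-0.67 ± 0.15, limma adjusted p = 0.00533). Most ribosomal proteins are encoded by pairs of near-identical genes, whose share of 50 bp reads is an estimate, so the values of single copies are uncertain.

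Translation factor lists had medians close to those of the ribosomal proteins. Of 27 initiation factor genes 18 rose and none fell (median 0.39). TIF4631, for the scaffold eIF4G, had 199.5, 194 and 207 scaled TPM in R787G and 138, 139 and 106 in G1242V (0.65 ± 0.15, limma adjusted p = 0.00573). RPG1, for an eIF3 subunit, rose by 0.70 ± 0.16 (limma adjusted p = 0.00568). Of 13 elongation and termination factor genes 5 rose and 1 fell, or 46.15% called, about the 46.3% of all features. Their median was 0.36, or 0.19 without G1242V replicate 3. Their rises numbered 3 without R787G replicate 2 or 3 or G1242V replicate 3. YEF3, for the elongation factor eEF3, had 1362, 1376 and 1537 in R787G and 994, 885 and 612 in G1242V (0.81 ± 0.21, limma adjusted p = 0.013). ANB1 had 17.3, 19.2 and 18.0 in R787G and 7.96, 7.96 and 4.99 in G1242V (1.29 ± 0.18, limma adjusted p = 0.000716). Mitochondrial ribosomal protein genes went the other way, with 40 of 73 lower and none higher (median -0.20). The fall was small for most, and 24, 21, 22 and 24 fell without R787G replicate 1 or 2 or G1242V replicate 1 or 2, and 13 in the TPM as deposited. MRPS12 had 150.0, 149 and 151 in R787G and 223, 213 and 191 in G1242V (-0.47 ± 0.06, limma adjusted p = 0.000575).

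**Figure D3:**
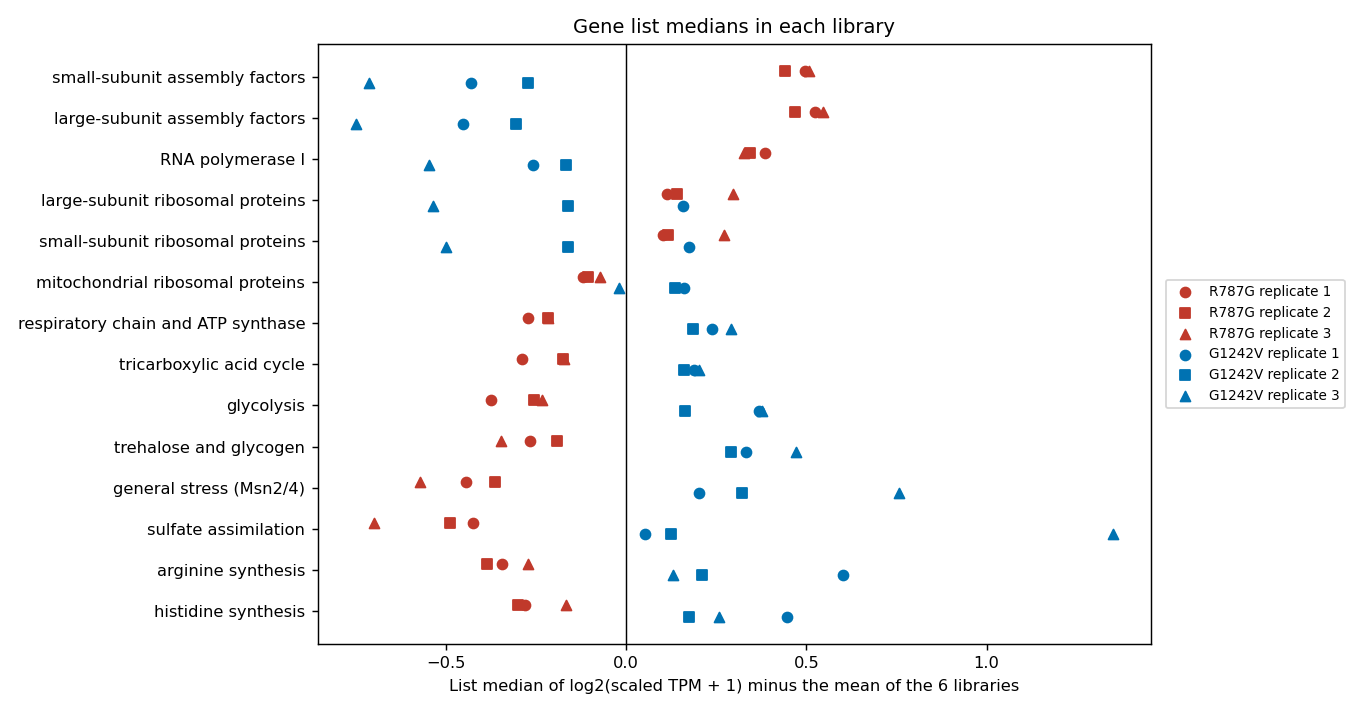
Median of log2(scaled TPM + 1) of 14 gene lists in each library, minus the mean of the 6 libraries (x axis, log2), for R787G (red) and G1242V (blue), with a symbol per replicate. The R787G cultures lie together, while G1242V replicate 3 lies farthest out in the assembly factor, general stress and sulfate lists and G1242V replicate 1 in the arginine list.

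Promoters were searched for 5 short elements, whose shares differed between sets of genes. The PAC core (GATGAG) and the RRPE core (AAAATTTT) are known from ribosome assembly genes, the STRE (AGGGG) is bound by the stress activators Msn2 and Msn4, CACGTG is bound by Cbf1, and TGACTC is the core bound by Gcn4 and Bas1. Both strands of the 300 bases before each annotated gene start were searched, with RNA genes included. None of the 5 motifs contains another, although PAC and TGACTC matches can share 3 letters. PAC cores stood in 74.6% of 138 promoters of genes at least 2-fold higher in R787G, 14% of 136 of genes at least 2-fold lower and 18.5% of all 5897. RRPE cores stood in 63%, 4.41% and 9.75% of the same sets, and both cores in 58.7%, 0% and 4.65%. The STRE had the opposite distribution, with 13% of the higher set, 52.9% of the lower set and 22.6% of all promoters. TGACTC stood in 6.52%, 28.7% and 7.87%, and CACGTG in 1.45%, 9.56% and 3.63%. By list, PAC cores stood in 86.9% of promoters of small-subunit assembly factors and 87.8% of those of large-subunit assembly factors, but in 9.88% of those of large-subunit ribosomal proteins. The assembly factor lists and the higher set have genes in common, as do the general stress and histidine lists and the lower set. Their shares are therefore not separate results. The general stress list is one of Msn2 and Msn4 targets, so its STRE share follows in part from how it was made. A match is a description of letters, not a bound site, and windows can reach into a neighbouring gene.

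Stretches of these windows are shown for some genes among the largest changes, picked from those that hold a match. Each is the gene's own strand from the sacCer3 reference, 5′ to 3′, with the matches of the motif named for it in capitals. Those with PAC and RRPE cores are DBP2 at chrXIV:413454-413531 on the plus strand, URA7 at chrII:145844-145928, SDA1 at chrVII:982178-982259, SYO1 at chrIV:340256-340358 and HAS1 at chrXIII:851657-851787, all on the minus strand. Those with a STRE are CTT1 at chrVII:654471-654535 on the plus and PGM2 at chrXIII:477788-477895 on the minus strand, MET28 at chrIX:384303-384368 on the minus strand holds CACGTG, and ADE17 at chrXIII:509422-509487 on the minus strand holds TGACTC.
DBP2: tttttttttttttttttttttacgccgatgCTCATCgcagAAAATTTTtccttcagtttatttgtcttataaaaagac
URA7: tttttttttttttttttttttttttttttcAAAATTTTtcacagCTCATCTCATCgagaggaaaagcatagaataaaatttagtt
SDA1: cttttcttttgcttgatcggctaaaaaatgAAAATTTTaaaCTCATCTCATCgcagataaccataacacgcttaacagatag
SYO1: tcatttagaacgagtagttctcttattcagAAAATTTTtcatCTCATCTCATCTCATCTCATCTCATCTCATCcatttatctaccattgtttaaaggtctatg
HAS1: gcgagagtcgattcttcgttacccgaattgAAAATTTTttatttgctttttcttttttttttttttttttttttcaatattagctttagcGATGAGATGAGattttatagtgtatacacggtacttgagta
CTT1: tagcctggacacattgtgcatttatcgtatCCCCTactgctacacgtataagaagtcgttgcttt
PGM2: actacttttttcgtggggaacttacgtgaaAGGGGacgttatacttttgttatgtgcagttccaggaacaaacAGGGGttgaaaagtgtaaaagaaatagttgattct
MET28: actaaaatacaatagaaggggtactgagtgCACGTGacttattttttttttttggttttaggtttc
ADE17: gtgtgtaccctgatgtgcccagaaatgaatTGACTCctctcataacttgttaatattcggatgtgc
In DBP2, URA7, SDA1 and SYO1 the PAC core reads CTCATC, its reverse complement, on the gene's strand. Adjoining copies in a run share 1 letter. MET28 also holds 1 STRE, left in lower case. Not all of the largest changes had such matches. Among the falls, no STRE was found for GPM2 and no TGACTC for DIP5 or ICY1. Among the rises, AAH1 and DHR2 held a PAC core but no RRPE core.

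**Figure D4:**
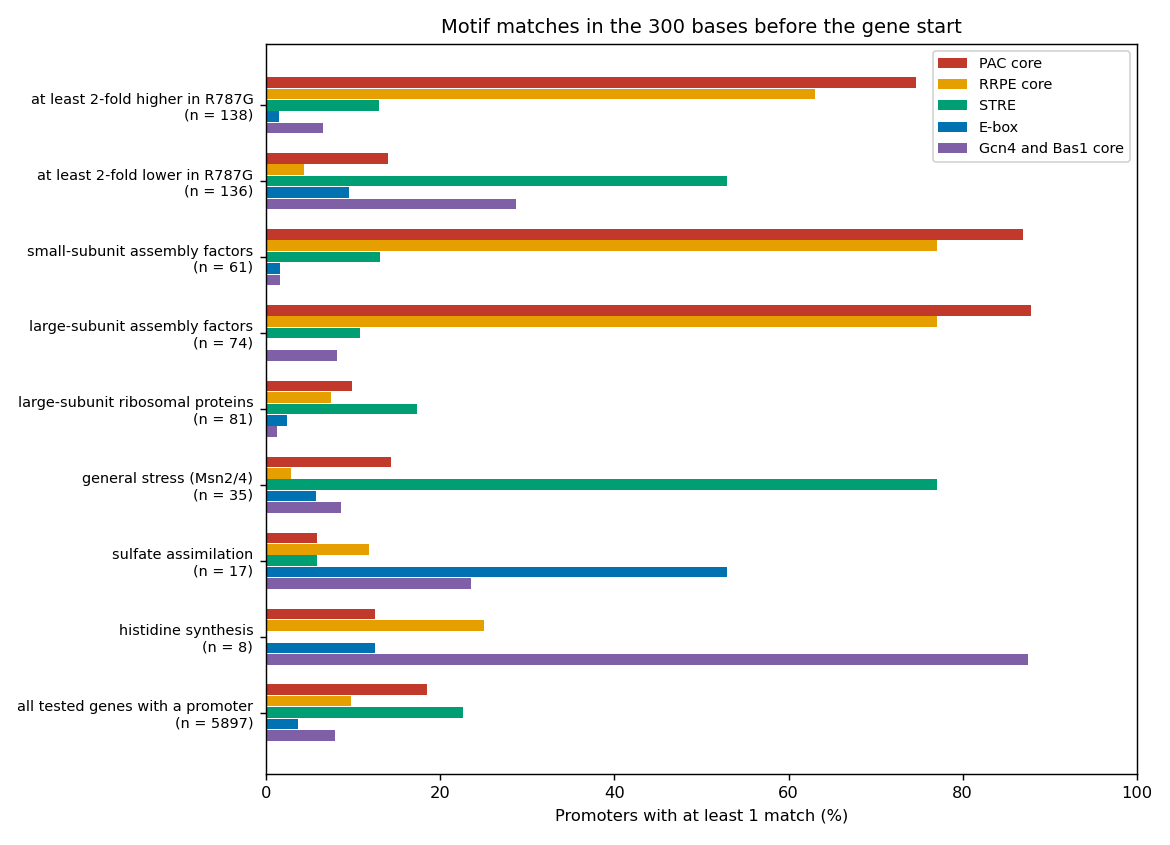
Percent of promoters (x axis) with at least 1 match of each of 5 motifs in the 300 bases before the gene start, for 9 gene sets with their number of promoters. PAC and RRPE bars are long for the genes at least 2-fold higher in R787G and for both assembly factor lists, the STRE bar for general stress genes and those at least 2-fold lower, and the Gcn4 and Bas1 bar for histidine synthesis.

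Genes of respiration were lower in R787G as a group. Of 41 nuclear genes for the respiratory chain and ATP synthase 40 fell and none rose (median -0.47), and all 11 tested genes of the tricarboxylic acid cycle fell (median -0.41). KGD2, for a subunit of 2-oxoglutarate dehydrogenase, had 145, 153 and 143 scaled TPM in R787G and 227, 234 and 252 in G1242V (-0.69 ± 0.08, limma adjusted p = 0.000306). CIT1, for mitochondrial citrate synthase, had 386, 403 and 409.7 in R787G and 556, 568 and 577 in G1242V (-0.50 ± 0.06, limma adjusted p = 0.000374). Groups were tight and apart in both genes. Among single genes of the chain the external NADH dehydrogenase gene NDE2 fell most (-1.44 ± 0.19, limma adjusted p = 0.000542), followed by the cytochrome c isoform gene CYC7 (-1.15 ± 0.27, limma adjusted p = 0.00674) and COX5B on chromosome IX (-1.12 ± 0.27, limma adjusted p = 0.00831). The respiratory medians per library were -0.27, -0.22 and -0.22 in R787G, 0.24, 0.19 and 0.29 in G1242V, -0.16, -0.43 and -0.06 in WT and -0.87 and -0.81 in the empty vector. G1242V was thus the highest of the 4 groups and the empty vector the lowest. Of 8 genes of the mitochondrial genome none passed in either direction. Under quantile normalization 6 of the tricarboxylic acid cycle genes fell.

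Glycolysis and storage carbohydrate genes were lower as well. Of 17 glycolytic genes 13 fell and 1 rose (median -0.59), with 8 falls under quantile normalization. TDH1, for the isoform of glyceraldehyde-3-phosphate dehydrogenase known from stationary phase, had 586, 689 and 564 scaled TPM in R787G and 1886, 1665 and 2881 in G1242V (-1.77 ± 0.18, limma adjusted p = 0.000243). WT averaged 5161 ± 592 and the empty vector 389 ± 7.19, so G1242V lay between WT and R787G. TDH genes share reads, and their split is an estimate. The glucokinase gene GLK1 had 409, 449.9 and 367 in R787G and 899, 881 and 1222 in G1242V (-1.28 ± 0.16, limma adjusted p = 0.000433), and the hexokinase gene HXK1 had 342, 373 and 304 in R787G and 770.3, 727 and 864 in G1242V (-1.21 ± 0.12, limma adjusted p = 0.000196). The one rise was HXK2, the main hexokinase in glucose, at 0.27 ± 0.09 (limma adjusted p = 0.034), a call that ended without any one of 7 libraries, namely every R787G library, G1242V replicates 2 and 3 and both empty vector libraries. Of 19 trehalose and glycogen genes 14 fell and none rose (median -0.47). PGM2, for phosphoglucomutase, had 105, 108 and 85.1 in R787G and 298, 295 and 405 in G1242V (-1.73 ± 0.18, limma adjusted p = 0.000266). The glycogen phosphorylase gene GPH1 had 153, 164 and 124 in R787G and 395, 384 and 438 in G1242V (-1.47 ± 0.21, limma adjusted p = 0.000789), while WT at 128 ± 49.3 and the empty vector at 139 ± 6.96 stood near R787G. Hexose transporter genes were mixed, with 7 of 19 higher, 3 lower and 3 higher under quantile normalization. HXT2, for a transporter known from low glucose, had 75.4, 86.5 and 87.8 in R787G and 40.1, 41.1 and 23.0 in G1242V (1.28 ± 0.21, limma adjusted p = 0.00139). HXT1, for the transporter known from high glucose, had 158, 154 and 175 in R787G and 255, 222 and 326 in G1242V (-0.70 ± 0.13, limma adjusted p = 0.00217). HXT6 and HXT7 are near-identical, so their opposite changes of 0.98 and -1.19 are uncertain.

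General stress genes, the targets of Msn2 and Msn4, were lower in R787G. Of 35 tested 26 fell and 1 rose (median -0.89). GPD1, for glycerol-3-phosphate dehydrogenase, had 166, 173 and 160.5 scaled TPM in R787G and 497, 457 and 589 in G1242V (-1.61 ± 0.10, limma adjusted p = 3.28e-05). HSP12, an abundant membrane chaperone gene, had 4186, 4293 and 3841 in R787G and 7537, 8978 and 12944 in G1242V (-1.22 ± 0.21, limma adjusted p = 0.00177). The groups stood far apart, with the highest value in G1242V replicate 3. The one rise was HSP26, for a small heat shock protein, at 0.73 ± 0.23 (limma adjusted p = 0.0277), a call that ended without R787G replicate 1 or 2 or G1242V replicate 1 or 3. The list medians per library were -0.45, -0.36 and -0.57 in R787G, 0.20, 0.32 and 0.76 in G1242V, 0.70, 0.85 and 1.19 in WT and -0.05 and -0.03 in the empty vector. R787G was the lowest of the 4 groups, and 2 of 3 G1242V libraries lay below every WT library. Genes of oxidative defence followed, with 8 of 16 thioredoxin and peroxiredoxin genes lower and none higher, a count of 4 without R787G replicate 1 or G1242V replicate 3 and of 3 in the TPM as deposited. SOD1, for superoxide dismutase, had 819, 847 and 799 in R787G and 1367, 1378 and 1472 in G1242V (-0.77 ± 0.08, limma adjusted p = 0.000204). TSA2, a peroxiredoxin gene, had 26.2, 29.9 and 24.0 in R787G and 61.7, 72.2 and 147 in G1242V (-1.67 ± 0.27, limma adjusted p = 0.00123), both far below the WT mean of 547 ± 96.1. Of 21 glutathione and detoxification genes 9 fell and 2 rose, with 5 falls without R787G replicate 1. Of 19 efflux transporter genes 9 fell and 1 rose (4 in the TPM as deposited and 3 without WT replicate 2), and among the falls ATR1 had 136, 122 and 139 in R787G and 251, 229.5 and 296 in G1242V (-0.96 ± 0.11, limma adjusted p = 0.000304).

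Sulfate assimilation was the list with the lowest median, -1.06, and 9 of its 17 genes fell and none rose. The size of this difference rested in part on 1 culture. Medians per library were -0.43, -0.49 and -0.70 in R787G, 0.05, 0.12 and 1.35 in G1242V and 1.39, 1.60 and 2.30 in WT. G1242V replicate 3 stood at the WT level and the other 2 G1242V libraries stood nearer R787G, and without G1242V replicate 3 the list median was -0.61, with 8 genes lower. Its place as the lowest was lost there, since general stress had -0.74 and arginine synthesis -0.71. MET16, for the reductase of activated sulfate, had 54.0, 52.0 and 52.5 scaled TPM in R787G and 117, 107 and 265 in G1242V (-1.48 ± 0.28, limma adjusted p = 0.00232). MET28 had 24.1, 25.7 and 29.7 in R787G and 79.6, 64.3 and 172 in G1242V (-1.82 ± 0.31, limma adjusted p = 0.00158). Of 21 methionine and S-adenosylmethionine genes 12 fell and none rose (median -0.54). SAM3, for the S-adenosylmethionine permease, had 74.4, 80.0 and 71.9 in R787G and 186, 163 and 217 in G1242V (-1.30 ± 0.13, limma adjusted p = 0.00019). The low-affinity methionine permease gene MUP3 had 33.1, 35.5 and 27.2 in R787G and 77.8, 78.8 and 125 in G1242V (-1.50 ± 0.20, limma adjusted p = 0.000535).

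Amino acid synthesis genes were lower in R787G for arginine and histidine and mixed for the others. Of 12 arginine genes 10 fell and 1 rose (median -0.62), and of 8 histidine genes 7 fell (median -0.56). ARG1, for argininosuccinate synthase, had 346, 340.0 and 400.2 scaled TPM in R787G and 1485, 1058 and 870.3 in G1242V (-1.62 ± 0.17, limma adjusted p = 0.00024). HIS4 had 292, 279 and 303 in R787G and 819.6, 616 and 616 in G1242V (-1.22 ± 0.14, limma adjusted p = 0.000309), and WT averaged 400.3 ± 66.4. The highest value of both genes was that of G1242V replicate 1. HIS3, the plasmid marker, belongs to the histidine list. The only arginine rise, that of the arginase gene CAR1 (0.38 ± 0.14, limma adjusted p = 0.0475), ended in most alternatives, among them those without any one R787G library, without G1242V replicate 2 or 3 and without any one WT or empty vector library. Of 18 aromatic amino acid genes 6 fell and 1 rose, or 38.9% called against 46.3% of all features. ARO3 was at -0.65 ± 0.10 (limma adjusted p = 0.000861). Of 17 serine, glycine and threonine genes 8 fell and 2 rose. GCV2, for a subunit of glycine decarboxylase, had 51.4, 46.7 and 48.3 in R787G and 126, 118 and 153 in G1242V (-1.42 ± 0.18, limma adjusted p = 0.000501). Branched-chain and lysine genes gave 4 of 15 and 3 of 10 falls and 1 rise each, or 33.3% and 40% called. Their medians of -0.14 and -0.12 were 0.01 for branched-chain genes without G1242V replicate 1, 0.04 for the same genes under quantile normalization, and 0.00 for lysine genes in the TPM as deposited. Lysine falls numbered 1 without R787G replicate 2 and 5 without G1242V replicate 3.

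Purine genes moved both ways. Of 26 tested 9 rose and 14 fell. The rises included genes for guanine nucleotide synthesis. GUA1, for GMP synthase, had 209.9, 208 and 226 scaled TPM in R787G and 117, 106 and 80.1 in G1242V (1.10 ± 0.19, limma adjusted p = 0.00156), and IMD4, for an IMP dehydrogenase, had 149, 149 and 159 in R787G and 88.1, 92.4 and 56.6 in G1242V (0.97 ± 0.22, limma adjusted p = 0.0063). IMD4 shares reads with its close relatives, so its own level is uncertain. All R787G values of both genes were above all G1242V values. The falls included genes on the way to IMP and of one-carbon supply. ADE17 is given above, and MTD1, for a folate dehydrogenase, had 71.2, 69.7 and 65.9 in R787G and 199, 200.0 and 195 in G1242V (-1.51 ± 0.13, limma adjusted p = 0.000116). ADE1 on chromosome I had 274, 174 and 171 in R787G and 494, 738 and 471 in G1242V (-1.46 ± 0.31, limma adjusted p = 0.00456), and its highest value lay in G1242V replicate 2, the library with the highest chromosome I median. Of 15 pyrimidine genes 6 rose and 1 fell, or 46.7% called, about the 46.3% of all features. URA1, for dihydroorotate dehydrogenase, had 140.4, 147 and 153 in R787G and 83.4, 77.8 and 61.0 in G1242V (0.99 ± 0.14, limma adjusted p = 0.000632), and the second orotate phosphoribosyltransferase gene URA10 fell, at -1.35 ± 0.32 (limma adjusted p = 0.00798).

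Genes for nitrogen uptake and vacuolar breakdown were mostly lower in R787G where they passed. Of 27 genes under nitrogen catabolite repression 13 fell and 1 rose (median -0.24). GAP1, the general amino acid permease gene, had 264, 235 and 222 scaled TPM in R787G and 600.4, 578 and 539.6 in G1242V (-1.25 ± 0.12, limma adjusted p = 0.00019). PUT4, for a proline permease, had 33.9, 31.3 and 29.1 in R787G and 94.0, 102 and 93.2 in G1242V (-1.58 ± 0.19, limma adjusted p = 0.00036). DIP5 had 103, 94.2 and 96.3 in R787G and 343, 301 and 341 in G1242V (-1.73 ± 0.12, limma adjusted p = 3.94e-05). In these 3 genes the G1242V cultures were close together and above the WT means of 395 ± 73.8, 52.2 ± 16.1 and 275 ± 46.5. Of 19 genes for vacuolar proteases and autophagy 11 fell and 1 rose (median -0.33). ATG19, for the receptor that carries Ape1 to the vacuole, had 91.3, 97.3 and 90.0 in R787G and 167, 158 and 202 in G1242V (-0.91 ± 0.12, limma adjusted p = 0.000512).

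**Figure D5:**
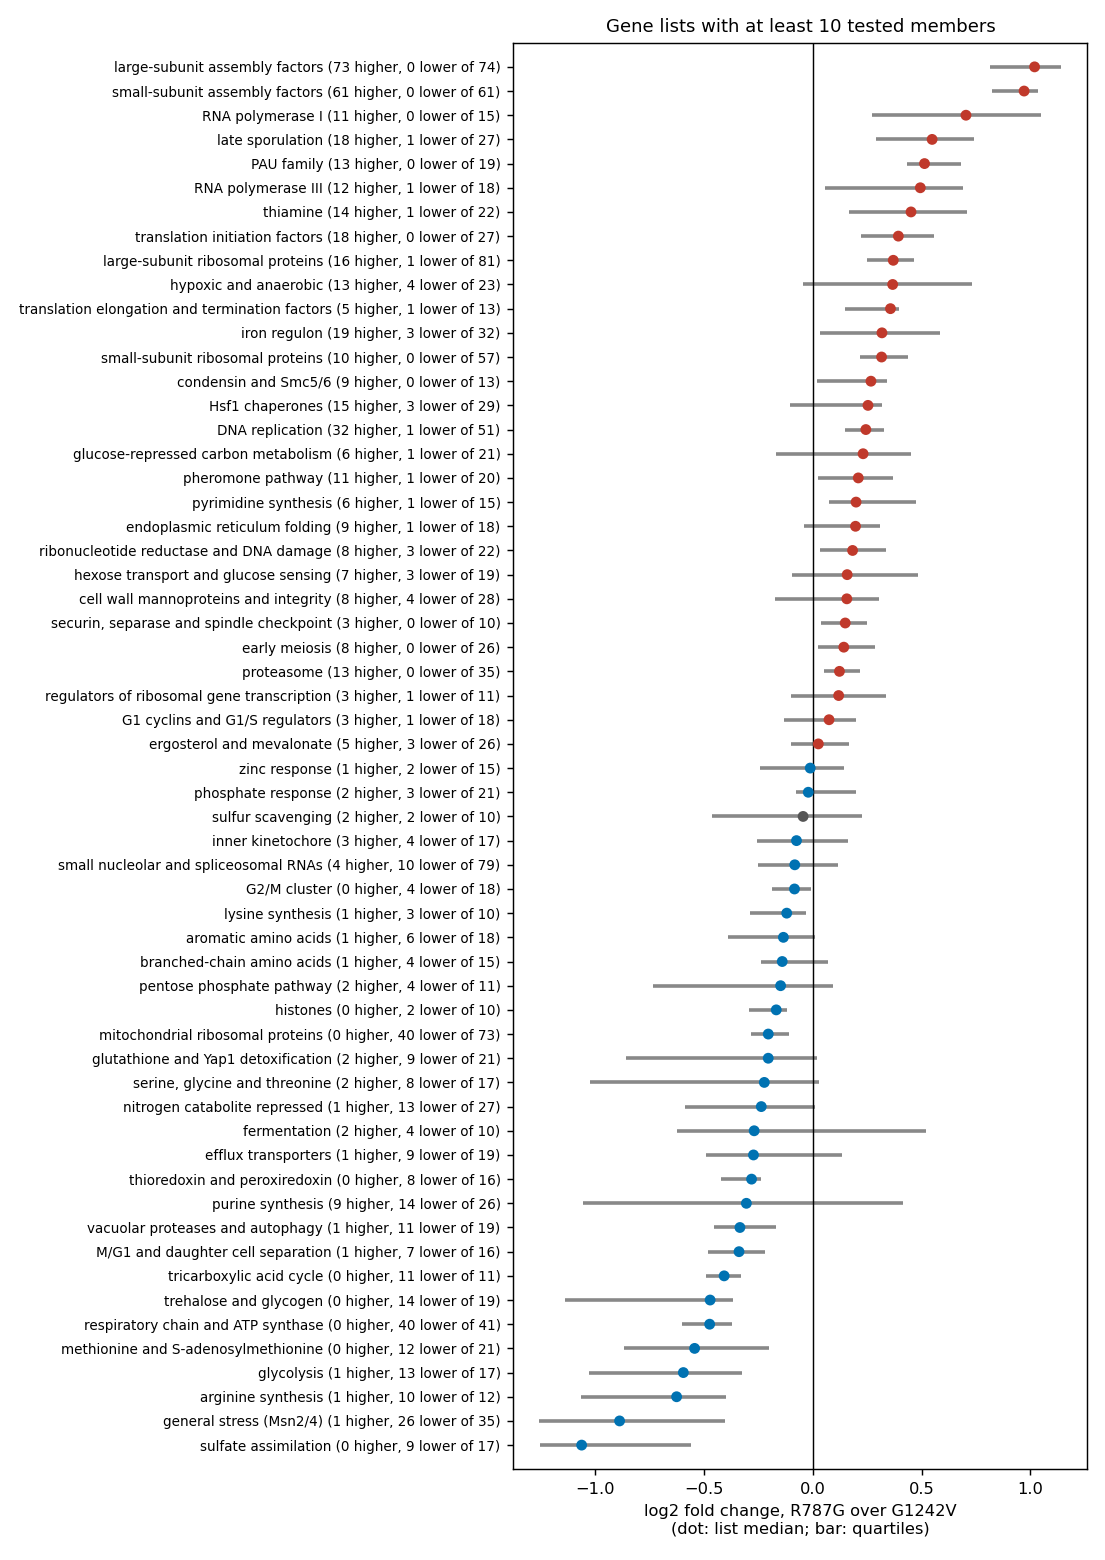
Median log2 fold change of R787G over G1242V (dots) with quartiles (bars) for gene lists with at least 10 tested members, and members called higher and lower in brackets. Dots are red where more members were called higher, blue where more were called lower and dark grey where equal. Both assembly factor lists stand at the top, and sulfate assimilation and general stress at the bottom.

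Chromosome and cell cycle genes differed by small amounts. Of 51 DNA replication genes 32 rose and 1 fell (median 0.24). DPB2, for a subunit of DNA polymerase epsilon, had 28.6, 29.1 and 27.1 scaled TPM in R787G and 18.1, 19.7 and 15.6 in G1242V (0.65 ± 0.09, limma adjusted p = 0.000542), while WT averaged 11.2 ± 0.831. A rise of most genes of this list thus came with small folds. The replication count was 17, 18 and 19 without R787G replicate 1, 2 or 3 and 17 without G1242V replicate 3. Of 13 condensin and Smc5/6 genes, other ring complexes of the SMC family, 9 rose and none fell (median 0.27). SMC5 had 28.5, 29.7 and 27.1 in R787G and 21.7, 23.4 and 21.3 in G1242V (0.35 ± 0.06, limma adjusted p = 0.00117). That count was 5, 4 and 5 without R787G replicate 1 or 2 or G1242V replicate 3. Of 10 genes for securin, separase and the spindle checkpoint 3 rose, or 30%, close to the 26.3% of all features. Among them was the checkpoint kinase gene BUB1 at 0.51 ± 0.08 (limma adjusted p = 0.00111). Inner kinetochore genes split, with 3 higher and 4 lower of 17, or 41.2% called against 46.3% of all features. Their median of -0.07 turned positive in the deposited TPM and after rescaling to nuclear coding genes. The kinetochore falls numbered 2 without R787G replicate 2 or 3 or G1242V replicate 2. Of 16 genes of the M/G1 phase and daughter cell separation 7 fell and 1 rose (median -0.34), with 4 falls without R787G replicate 1 or 2 and 11 without WT replicate 2. EGT2, for a cell wall protein of daughter separation, had 85.1, 85.5 and 98.4 in R787G and 133, 108 and 137 in G1242V (-0.48 ± 0.12, limma adjusted p = 0.0115). G1 cyclin, G2/M and histone genes passed in 3, 0 and 0 cases upward and 1, 4 and 2 downward of 18, 18 and 10, so that 22.2%, 22.2% and 20% of them were called, against 46.3% of all features, and the G1 and G2/M medians changed sign with the scaling. The histone falls numbered 1 without R787G replicate 1 or G1242V replicate 2 and 3 without G1242V replicate 3. The G2/M falls numbered 2 without R787G replicate 2 or 3 or G1242V replicate 1 or 2, and 0 in the TPM as deposited. The G1 rises numbered 0 without R787G replicate 1 or 3 or G1242V replicate 1 or 3 and 1 without R787G replicate 2 or either empty vector library.

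Several smaller groups rose in R787G in most of the members called. Of 27 late sporulation genes 18 rose and 1 fell (median 0.55), with 10 rises under quantile normalization. SPO19 had 14.5, 13.2 and 11.2 scaled TPM in R787G and 4.11, 5.76 and 3.29 in G1242V (1.39 ± 0.15, limma adjusted p = 0.00029), against 1.33 ± 0.129 on average in WT and 28.1 ± 1.19 in the empty vector. GAS2, for a glucan-modifying enzyme of the spore wall, had 37.8, 36.0 and 36.5 in R787G and 16.4, 20.2 and 11.2 in G1242V (1.19 ± 0.20, limma adjusted p = 0.00134). Both genes were lowest in WT and highest with the empty vector. Of 24 PAU genes, a subtelomeric family of near-identical sequence that shares reads, 19 passed the filter and 13 rose and none fell (median 0.51), with 8 rises without R787G replicate 2 and 6 under quantile normalization. Of 32 iron regulon genes 19 rose and 3 fell (median 0.32), with 1 fall without R787G replicate 1 or 2. SIT1, a siderophore transporter gene, had 71.4, 65.8 and 77.9 in R787G and 30.7, 35.5 and 29.9 in G1242V (1.14 ± 0.13, limma adjusted p = 0.000304). FTR1, for the high-affinity iron permease, had 97.7, 97.3 and 105 in R787G and 48.2, 52.1 and 43.7 in G1242V (1.05 ± 0.08, limma adjusted p = 0.000109). The groups did not overlap in either iron gene. Of 22 thiamine genes 14 rose and 1 fell (median 0.45), and of 23 hypoxic genes 13 rose and 4 fell (median 0.37, 8 rises under quantile normalization). HEM13, for a haem synthesis enzyme that needs oxygen, had 67.8, 72.8 and 72.7 in R787G and 50.3, 50.6 and 37.0 in G1242V (0.63 ± 0.11, limma adjusted p = 0.00157). Of 20 pheromone pathway genes 11 rose and 1 fell. AGA1, for the anchor subunit of a-agglutinin, had 16.4, 15.5 and 16.0 in R787G and 7.59, 8.76 and 6.40 in G1242V (0.99 ± 0.14, limma adjusted p = 0.000707), and the G-protein gene STE18 had 64.3, 64.0 and 66.3 in R787G and 90.2, 90.6 and 100.5 in G1242V (-0.52 ± 0.12, limma adjusted p = 0.00655). R787G lay above G1242V in every culture in HEM13 and AGA1 and below it in STE18. The pheromone rises numbered 6 under quantile normalization.

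Protein folding genes were partly higher. Of 29 chaperone genes under Hsf1 15 rose and 3 fell (median 0.25), or 62.1% called against 46.3% of all features. The rises numbered 7 without R787G replicate 2. BTN2, for a protein sorting factor, had 386, 433 and 352 scaled TPM in R787G and 178, 208 and 188 in G1242V (1.02 ± 0.09, limma adjusted p = 0.000136), against 121 ± 6.42 on average in WT and 966 ± 12.4 in the empty vector. SSA3, an inducible Hsp70 gene, had 141, 166 and 112 in R787G and 71.3, 84.8 and 52.6 in G1242V (1.00 ± 0.18, limma adjusted p = 0.00183), against 462 ± 7.60 in the empty vector. Both genes were highest with the empty vector. Of 18 genes for folding in the endoplasmic reticulum 9 rose and 1 fell, or 55.6% called. KAR2, the Hsp70 of that compartment, had 644, 692 and 639.7 in R787G and 489, 469 and 381 in G1242V (0.57 ± 0.09, limma adjusted p = 0.00122), while HAC1, for the activator of the unfolded protein response, had 1010.4, 1072 and 1068 in R787G and 1449.9, 1265 and 1432 in G1242V (-0.39 ± 0.11, limma adjusted p = 0.0134). Groups were apart in both genes, in opposite directions. Of 35 proteasome genes 13 rose and none fell (median 0.12), or 37.1% called, below the 46.3% of all features. Their rises numbered 4, 2 and 8 without R787G replicate 1, 2 or 3 and 6 without G1242V replicate 1. They numbered 7 without G1242V replicate 3 or either empty vector library, against 25 in the TPM as deposited. Of 22 genes of ribonucleotide reductase and DNA damage 8 rose and 3 fell, or 50% called, close to the 46.3% of all features. Their rises numbered 5 without any one R787G library or G1242V replicate 3 and 14 in the TPM as deposited. HUG1, for an inhibitor of ribonucleotide reductase, had 30.3, 27.7 and 21.9 in R787G and 14.8, 14.4 and 9.40 in G1242V (1.01 ± 0.21, limma adjusted p = 0.00436), while DDR2, a general stress gene despite its name, averaged 548 ± 69.6 in R787G and 1379 ± 485 in G1242V (SD, n = 3 each; -1.28 ± 0.23, limma adjusted p = 0.00212).

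Several of the other lists had a smaller share of members called than the 46.3% of all features. They were those of zinc (1 rose and 2 fell of 15, 20% called), phosphate (2 and 3 of 21, 23.8%), small nucleolar and spliceosomal RNAs (4 and 10 of 79, 17.7%) and ergosterol (5 and 3 of 26, 30.8%). Sulfur scavenging genes (2 rose and 2 fell of 10) were called in 40% of cases. Of 26 early meiosis genes 8 rose, or 30.8%, against 26.3% of all features, and none fell. By the annotation, 4 of 74 small nucleolar RNAs tested rose and 7 fell, and 3 of 6 spliceosomal RNAs fell. The 79 of these other than the spliceosomal RNA LSR1 had a median of -0.08, against 0.04 in the TPM as deposited, where 10 were higher. Their falls numbered 4, 3 and 6 without R787G replicate 1, 2 or 3 and 5 without G1242V replicate 3. Their rises numbered 1 without R787G replicate 1 or 3 and 2 without R787G replicate 2, G1242V replicate 3 or WT replicate 2. Early meiosis rises numbered 5 without R787G replicate 1 or either empty vector library and 4 without R787G replicate 2, and the median of 0.14 was -0.07 under quantile normalization, with 3 rises and 3 falls. Ergosterol rises numbered 3 without any one R787G library, G1242V replicate 3 or either empty vector library and 10 in the TPM as deposited and 11 under quantile normalization, and its falls 1 without any one R787G library or G1242V replicate 1. Phosphate rises numbered 4 without G1242V replicate 2. The zinc, phosphate and sulfur scavenging medians, all close to 0, were above 0 in the TPM as deposited. ERG3, for a desaturase of ergosterol synthesis, had 322, 331 and 337 scaled TPM in R787G and 227, 228 and 177 in G1242V (0.65 ± 0.11, limma adjusted p = 0.00126). Of 28 cell wall genes 8 rose and 4 fell, or 42.9% called (14 and 2 in the TPM as deposited). CWP1, for a cell wall mannoprotein, had 210.5, 193 and 237 scaled TPM in R787G and 444, 407 and 317 in G1242V (-0.85 ± 0.18, limma adjusted p = 0.00391), both above the WT mean of 104 ± 27.6. YPS3, for a cell surface protease, had 57.8, 68.4 and 74.4 in R787G and 48.3, 38.9 and 37.7 in G1242V (0.67 ± 0.17, limma adjusted p = 0.0108). Groups did not overlap in either gene. Fermentation genes (2 rose and 4 fell of 10), glucose-repressed genes (6 and 1 of 21, 33.3% called) and pentose phosphate genes (2 and 4 of 11) were mixed. RKI1, for ribose-5-phosphate isomerase, had 42.3, 40.2 and 45.5 in R787G and 19.3, 22.6 and 13.1 in G1242V (1.20 ± 0.21, limma adjusted p = 0.00178), and SOL4, for a lactonase of the oxidative branch, had 53.1, 59.6 and 49.0 in R787G and 96.8, 112 and 168 in G1242V (-1.17 ± 0.22, limma adjusted p = 0.00253). Under quantile normalization 1 glucose-repressed gene rose and 7 fell, the opposite balance, and the glucose-repressed and pentose phosphate medians changed sign. Fermentation rises numbered 1 without R787G replicate 1 or 2 or G1242V replicate 1 or 3, and pentose phosphate rises 1 without R787G replicate 2 or 3 or G1242V replicate 2 or 3.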

How the data were processed

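RNA of 11 yeast cultures was ribosomal RNA-depleted and sequenced as 50 bp single reads from stranded libraries, per the labels' protocols. The submitters' processing notes name bcl2fastq 2.17, STAR, RSEM, edgeR and the build sacCer3, with no settings. The deposited table holds TPM, relative transcript abundance per length with a fixed sum, per gene, made by the authors with RSEM, per the table's name. A change in abundant RNA therefore moves all other genes, and depth is unknown. The strand setting of the counting is not given in the sources used here, so overlapping and antisense genes are uncertain. 1 shifted row was left out of 7036. Of 7035 features, 5955 matched the reference by locus tag, 126 by symbol and 954 not.

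TPM were multiplied by 1 median-of-ratios factor per library (0.964 to 0.999 in R787G and 1.04 to 1.08 in G1242V), over 5221 genes at 10 TPM or more in all 11 libraries. Features at 1 scaled TPM or more in at least 2 libraries were kept. limma 3.58.1 in R 4.3.3 was fitted to log2(scaled TPM + 1), with 1 mean for each of 4 groups and a trended variance, and R787G was tested against G1242V, two-sided, with Benjamini-Hochberg adjustment over 6410 features at 0.05. On simulated data, 100 genes were changed by a log2 of 1 and 100 by 0.5. Of these, 89% and 70% were recovered, and 7.02% of calls were false. The simulation changed only these genes, all above about 10 scaled TPM, and drew the spread separately for each gene and library. In the data 46.3% of features were called and whole chromosomes shifted within cultures, so 7.02% need not be the false share of those calls. Ribosomal RNA genes held 0.155% to 0.494% of TPM in 10 libraries and 9.19% in WT replicate 2.

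The groups, gene lists and tests were chosen with earlier results of these data known. Named genes were the cohesin and mating type lists, HIS3 and the 15 largest rises and falls past the threshold. Those 15 were taken from genes with a standard symbol, at 10 scaled TPM or more and with groups apart. Features known only by a systematic name could not enter. From each list came at most 3 rises and 3 falls (1 each where under 1 in 4 members were called), of which some are printed. Some genes stand in more than one list and count in each, among them HSP12, HSP26, DDR2 and ANB1. Same-numbered cultures were not paired by the data (correlations of deviations -0.20, -0.13 and 0.01).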

Additional observations from a re-analysis of the deposited data

How the results depend on the processing

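Across 24 alternatives (other scalings, pseudocounts, filters, variance models, chromosome treatment, and each library left out), 185 of the 232 named genes called kept their call in all, and 0 reversed while called. With the fits that left out 1 library set aside, 197 kept their call in all the rest. That rest includes the fit to only the R787G and G1242V libraries. Leaving out 1 library gave 2237 to 3212 called features, 1265 to 1816 higher and 972 to 1396 lower. At least 2-fold, 69 to 226 were higher and 107 to 159 lower. SCC2 ranged from 0.19 to 0.39 and HIS3 from -1.36 to -1.10. Calls that were lower numbered 797 in the unscaled TPM and 809 with nuclear coding genes as the base. Those at least 2-fold higher numbered 240 in the unscaled TPM, 272 with a pseudocount of 0.1 and 75 with a pseudocount of 5. With a 2-fold minimum the counts of 2970, 1689 and 1281 became 289, 150 and 139. SCC2 passed at 0.43 (limma adjusted p = 0.0195) in the unscaled TPM, 0.41 (0.0238) on the nuclear coding base and 0.345 (0.0448) under quantile normalization. With the replicate number as a block, 2960 features were called, 1685 higher and 1275 lower; the cultures share only a number, and the same-number correlations are given with the processing. Genes that did not pass and changed sign were MCD1 (0.058 unscaled, 0.041 on the nuclear coding base, and -0.121 to 0.027 without 1 library), IRR1 (-0.009 to 0.214 without 1 library), RAD61 (0.068, 0.051, and -0.101 to 0.021 without 1 library), HOS1 (-0.024 under quantile normalization), STE2 (0.022 under quantile normalization), MFA2 (0.042, 0.025, 0.134 under quantile normalization and -0.152 to 0.025 without 1 library), BAR1 on chromosome IX (-0.022 under quantile normalization, -0.050 centred by chromosome and -0.154 to 0.116 without 1 library) and STE6 (0.017 and 0.001). The cause of these changes was not tested. Depth is unknown, so no counting limit could be given.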

Other observations

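Some RNAs that encode no protein differed between the variants. Of 6 spliceosomal RNA features in the annotation 0 rose and 3 fell. Of 25 others 6 rose and 2 fell, against 46.3% of all features called in either direction. These others leave out mature ribosomal, transfer and small nucleolar RNAs but include the transcribed spacers of the ribosomal RNA repeat. The spacer entries ETS2-1 and ETS2-2, which share a value, were among the rises (0.78 ± 0.15, limma adjusted p = 0.00266). Copies of a repeat count separately here, and SNR7-L and SNR7-S overlap. IRT1, a long RNA upstream of the meiosis inducer gene IME1, had 13.8, 14.4 and 14.2 scaled TPM in R787G and 17.9, 21.2 and 25.7 in G1242V (log2 fold change -0.56 ± 0.14 SE, limma adjusted p = 0.0106). The RUF5 RNA of the CUP1 repeat had 19.5, 19.7 and 17.9 in R787G and 9.86, 10.8 and 15.7 in G1242V (0.63 ± 0.17, limma adjusted p = 0.014), a value that its 2 copies, RUF5-1 and RUF5-2, share. The groups did not overlap in either RNA. PWR1, a long RNA at the FLO11 locus on chromosome IX, had 0.868, 0.779 and 1.16 in R787G and 0.368, 0.364 and 0.301 in G1242V (0.52 ± 0.13, limma adjusted p = 0.0102), all near or under 1 scaled TPM. SNR6, the U6 spliceosomal RNA, had 53.1, 46.6 and 40.9 in R787G and 64.2, 72.9 and 85.9 in G1242V (-0.65 ± 0.15, limma adjusted p = 0.00585). SNR6 was lower in every R787G culture than in any G1242V culture. Strand settings of the counting are not known, so RNAs that overlap other genes are uncertain.

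The direction of calls varied with level and place. Of 896 features at a level under 10 scaled TPM, 304 rose and 13 fell, while of 914 at 200 or more, 118 rose and 339 fell. The filter on low values counted WT and empty vector libraries too, so low features could enter through any group. It passed 6410 features, against 6222 with only the R787G and G1242V libraries. The part of this filter in the balance of calls among low features was not tested. Of 474 open reading frame names with no match in the reference annotation, 136 rose and 13 fell. Among nuclear protein-coding genes within 20 kb of a chromosome end, 34.1% of 205 rose and 10.2% fell, and among those farther away 26.3% of 5576 rose and 22.1% fell. At 10 scaled TPM or more the shares were 27.1% and 14.3% near the ends and 25.5% and 23.6% farther away, so the classes were closer in rises once low genes were left out. The part of expression level in the other difference was not tested.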
